A study of Homo sapiens with 12 samples.

Results

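Open chromatin was examined at the genes of the Hippo pathway's output, the coactivators YAP1 and WWTR1 (TAZ), their DNA-binding partner TEAD1, and 5 genes that they are known to switch on: CCN1 (CYR61), CCN2 (CTGF), ANKRD1, AMOTL2 and LATS2. The members were all peaks that touched the span of 1 of these 8 genes or the 50 kb on either side, on hg19. Over the 6 peak lists this rule took 240 of 170706 peaks, which merged into 106 of 84664 regions. The 8 windows make up 0.0512% of the span covered by the lists on the autosomes and chromosome X.

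YAP1 and WWTR1 cannot bind DNA themselves; when the Hippo kinases are inactive they enter the nucleus and act through TEAD factors, often at enhancers far from the gene start. The kinase LATS2 phosphorylates YAP1 and WWTR1 and keeps them in the cytoplasm, and AMOTL2, an angiomotin, binds YAP1 and holds it outside the nucleus, so both form part of a negative feedback. CCN1 and CCN2 encode secreted matricellular proteins and ANKRD1 a nuclear ankyrin repeat protein, and all are common readouts of YAP activity in adherent cells.

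The assay was ATAC-seq, in which the Tn5 transposase inserts adapters into accessible DNA, with 3 ARPE-19 and 3 H7 libraries, each from 500000 cells. ARPE-19 is an immortal human retinal pigment epithelial line that arose without a transforming gene, grown in a medium with fetal bovine serum. H7 is a human embryonic stem cell line, grown in mTeSR Plus, so that cell line and medium cannot be told apart. Neither group carried a treatment or a genetic change, and the labels do not say whether the triplicates came from separate cultures, so the spread behind each p-value is that among these libraries and may be technical.

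The lists differed in length and the libraries in depth. The ARPE-19 lists held 40110 to 48460 peaks and the H7 lists 8622 to 15351. The genome-wide background, a measure of relative depth recovered from each list, was 0.425 to 0.483 expected reads per position in ARPE-19 and 0.592 to 0.653 in H7. Among the peaks near the 8 genes the weakest of each library had 4 to 5 reads at its summit in ARPE-19 and 5 to 8 in H7. A region without a peak was therefore not called at this depth, which does not show that it was closed. In these bulk libraries, a site open in few cells and a site weakly open in all cells cannot be told apart.

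The promoter sequences show how the loci differ in letters that TEAD factors are known to recognise. In RefSeq promoters of GRCh38.p14, each 250 bases before to 50 after a start, the letters GGAATG were searched on both strands, as GGAATG and CATTCC. Of 35116 promoters 14.0% held at least 1 match, 1.37% at least 2 and 0.128% at least 3. Entries were found for 6 of the 8 genes, all but TEAD1 and CCN1, with 8 promoters in all. CCN2 had 3 matches, at 169, 104 and 95 bases before its start, and ANKRD1 had 2, at 220 and 128 bases before. YAP1 had 1, at 162 bases before its start, and AMOTL2 had 1, at 69 bases before the inner of its 2 starts. LATS2 had 1 just after its start, and WWTR1 had none in either of its 2 promoters. The stretches before the start that hold a match are printed 5′ to 3′ along the gene, with the match in capitals. They were chosen because peaks were called within 1 kb of the hg19 starts of these 4 genes. The RefSeq starts on GRCh38 were not matched to the hg19 starts used for the peaks.
CCN2, chr6:131951373-131951622, minus strand: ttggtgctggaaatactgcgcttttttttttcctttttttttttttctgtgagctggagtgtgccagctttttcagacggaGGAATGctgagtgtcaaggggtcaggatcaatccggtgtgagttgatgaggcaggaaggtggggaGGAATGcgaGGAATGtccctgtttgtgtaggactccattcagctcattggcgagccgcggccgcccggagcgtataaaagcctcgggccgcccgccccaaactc
ANKRD1, chr10:90921088-90921337, minus strand: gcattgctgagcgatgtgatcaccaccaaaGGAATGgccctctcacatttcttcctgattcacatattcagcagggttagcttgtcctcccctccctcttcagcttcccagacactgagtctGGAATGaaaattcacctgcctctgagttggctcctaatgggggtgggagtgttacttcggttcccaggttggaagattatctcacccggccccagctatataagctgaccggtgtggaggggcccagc
YAP1, chr11:102110245-102110330, plus strand: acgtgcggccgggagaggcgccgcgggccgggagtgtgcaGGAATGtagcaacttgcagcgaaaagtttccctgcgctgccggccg
AMOTL2, chr3:134374471-134374556, minus strand: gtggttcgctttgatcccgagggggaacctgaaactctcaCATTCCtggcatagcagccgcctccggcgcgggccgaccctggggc

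A match is a description of the letters and not a bound site. For comparison, of 18 other genes of the pathway, among them TEAD2, LATS1, STK4, NF2 and AXL, 16 had an entry, with 26 promoters in all. A match was found in 3 of these promoters, at AJUBA, AXL and PTPN14. The letters TGANTCA, a loose form of an AP-1 site with N as any base, read the same on both strands. Among the 6 genes with an entry they were found at ANKRD1 alone, as TGATTCA at 195 bases before the start. Of all promoters, 7.71% held them. Of the 26 promoters of the other pathway genes, 2 held these letters, at LATS1 and MOB1B. The accessibility of the other pathway genes was not analysed here, because no gene positions on hg19 were used beyond those of the 8 members.

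Peaks near the 8 genes were about 4 times as numerous in the retinal pigment epithelial line as in the stem cells, where the lists as a whole differed 3.53-fold. ARPE-19 replicates 1, 2 and 3 had 66, 58 and 69 such peaks, and H7 replicates 1, 2 and 3 had 16, 19 and 12. The ARPE-19 mean of 64.3 ± 5.69 was 4.11-fold the H7 mean of 15.7 ± 3.51 (SD, n = 3), a log2 difference of H7 from ARPE-19 of -2.02 (SE 0.20, exact permutation test, two-sided p = 0.1). With 3 libraries against 3, an exact permutation test cannot go below p = 0.1. As a share of each list, the peaks made up 0.148%, 0.145% and 0.142% in ARPE-19 and 0.104%, 0.139% and 0.139% in H7. These shares lay above the 0.0512% of the span that the windows hold in every library. The share in windows drawn around other genes was not analysed here, so whether this excess is particular to the 8 genes is not known. The share was lower in every H7 library than in every ARPE-19 library, but the lines were close, with means of 0.145% and 0.127% (exact permutation p = 0.1). The difference of -0.018 percentage points became -0.0063 without H7 replicate 1. At a -log10 q of 5 or more it was -0.011, with an exact permutation p of 0.8.

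The direction of the count depended on how many peaks of each list were taken. When only the 8622 peaks with the highest -log10 p were kept in each library, the length of the shortest list, the counts were 11, 9 and 10 in ARPE-19 and 14, 12 and 12 in H7. Every H7 library then had more peaks near the 8 genes than every ARPE-19 library (exact permutation p = 0.1). This limit fell at a -log10 p of 17.1, 15.7 and 18.9 in ARPE-19 replicates 1, 2 and 3. In H7 replicates 1, 2 and 3 it fell at 6.81, 6.53 and 4.31. The fewest summit reads of any kept peak were 13 to 15 in ARPE-19 and 6 to 8 in H7. The cut was made on -log10 p and not on reads, so peaks with more reads than these could also be dropped. With 1 threshold for all libraries, a -log10 p of 4.31, the counts were 63, 56 and 69 against 15, 18 and 12, close to those of the full lists.

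**Figure D1:**
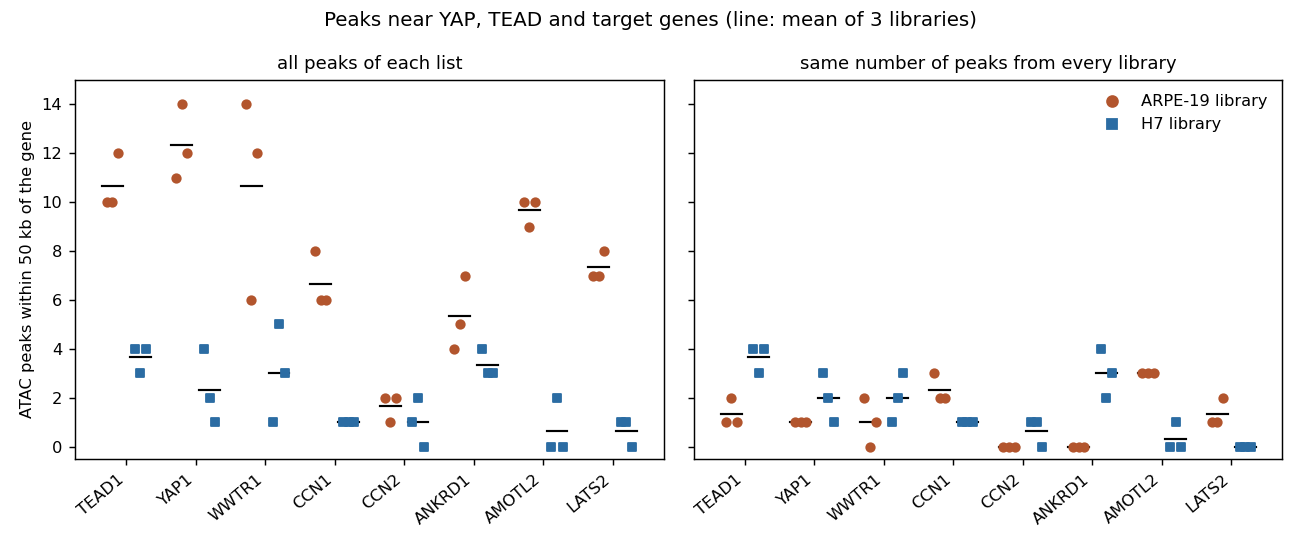
Number of ATAC peaks within 50 kb of each gene (vertical axis) for the 8 genes, with circles for the 3 ARPE-19 and squares for the 3 H7 libraries and a line at each mean. On the left, with all peaks, ARPE-19 is higher at all 8 genes; on the right, with every list limited to its 8622 strongest peaks, it stays higher at CCN1, AMOTL2 and LATS2 and is lower at the other 5.

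With all peaks, the mean count was higher in ARPE-19 at all 8 genes, and the libraries of the lines did not overlap at 6 of them. Among 13441 bins of 200 kb with a peak in any library, 53.4% had more peaks in every ARPE-19 than in every H7 library. The 6 genes were TEAD1, YAP1, WWTR1, CCN1, AMOTL2 and LATS2, each with an exact permutation p of 0.1 and 0.133 after Benjamini-Hochberg adjustment over the 8 genes. CCN2 and ANKRD1 overlapped between the lines. With all lists limited to that length, CCN1, AMOTL2 and LATS2 kept more peaks in every ARPE-19 library, while TEAD1 and ANKRD1 had more in every H7 library and YAP1, WWTR1 and CCN2 overlapped with higher H7 means. Among the 10839 bins of 200 kb with a peak in these shortened lists, 14.2% had more peaks in every ARPE-19 library and 12.0% in every H7 library. The gene windows were 103 to 370 kb long, so bins and windows are not alike in size.

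The merged regions were sorted by the libraries that had a peak in them. Of the 106 regions, 33 were called in every ARPE-19 list but in none from H7, which is 31.1% against 26.0% of all merged regions. The reverse pattern was found in 2 regions, 1.89% against 1.82% of all. A peak in all 6 libraries was found in 3 regions, 2.83% against 1.82% of all. These shares were near those over all regions and say nothing particular about the 8 genes. Another 39 regions, 36.8%, had a peak in 1 library, where the share over all regions was 46.4%. With every list limited to its 8622 strongest peaks, 34 regions remained near the genes. Of these, 4 were called in all ARPE-19 and no H7 libraries (11.8%, against 14.7% of all regions) and 5 in all H7 and no ARPE-19 libraries (14.7%, against 6.74% of all). Some of the 5 did have ARPE-19 peaks in the full lists, in 3 libraries at TEAD1, 2 at WWTR1 and 1 at YAP1. Among the 4, the AMOTL2 region had a peak in 1 H7 library in the full lists. The shortened lists reached down to a -log10 p of 15.7 to 18.9 in ARPE-19 and of 4.31 to 6.81 in H7.

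The 33 regions called in ARPE-19 alone were of ordinary strength for their class. Their median summit signal, the summit reads over the library's genome-wide background averaged over the 3 libraries, was 30.8 times the background, where all 22042 such regions had a median of 30.4. They ranged from 13.9 times, in the body of WWTR1, to 83.4 times, downstream of CCN1, a value at or above that of 97.4% of the class. By position, 17 of the 33 lay in a gene body, 10 downstream, 4 upstream and 2 within 1 kb of a gene start. Of all 106 regions near the genes, 55, 27, 18 and 6 lay in these places, so the split was much alike. The long genes hold most of the gene body regions.

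**Figure D2:**
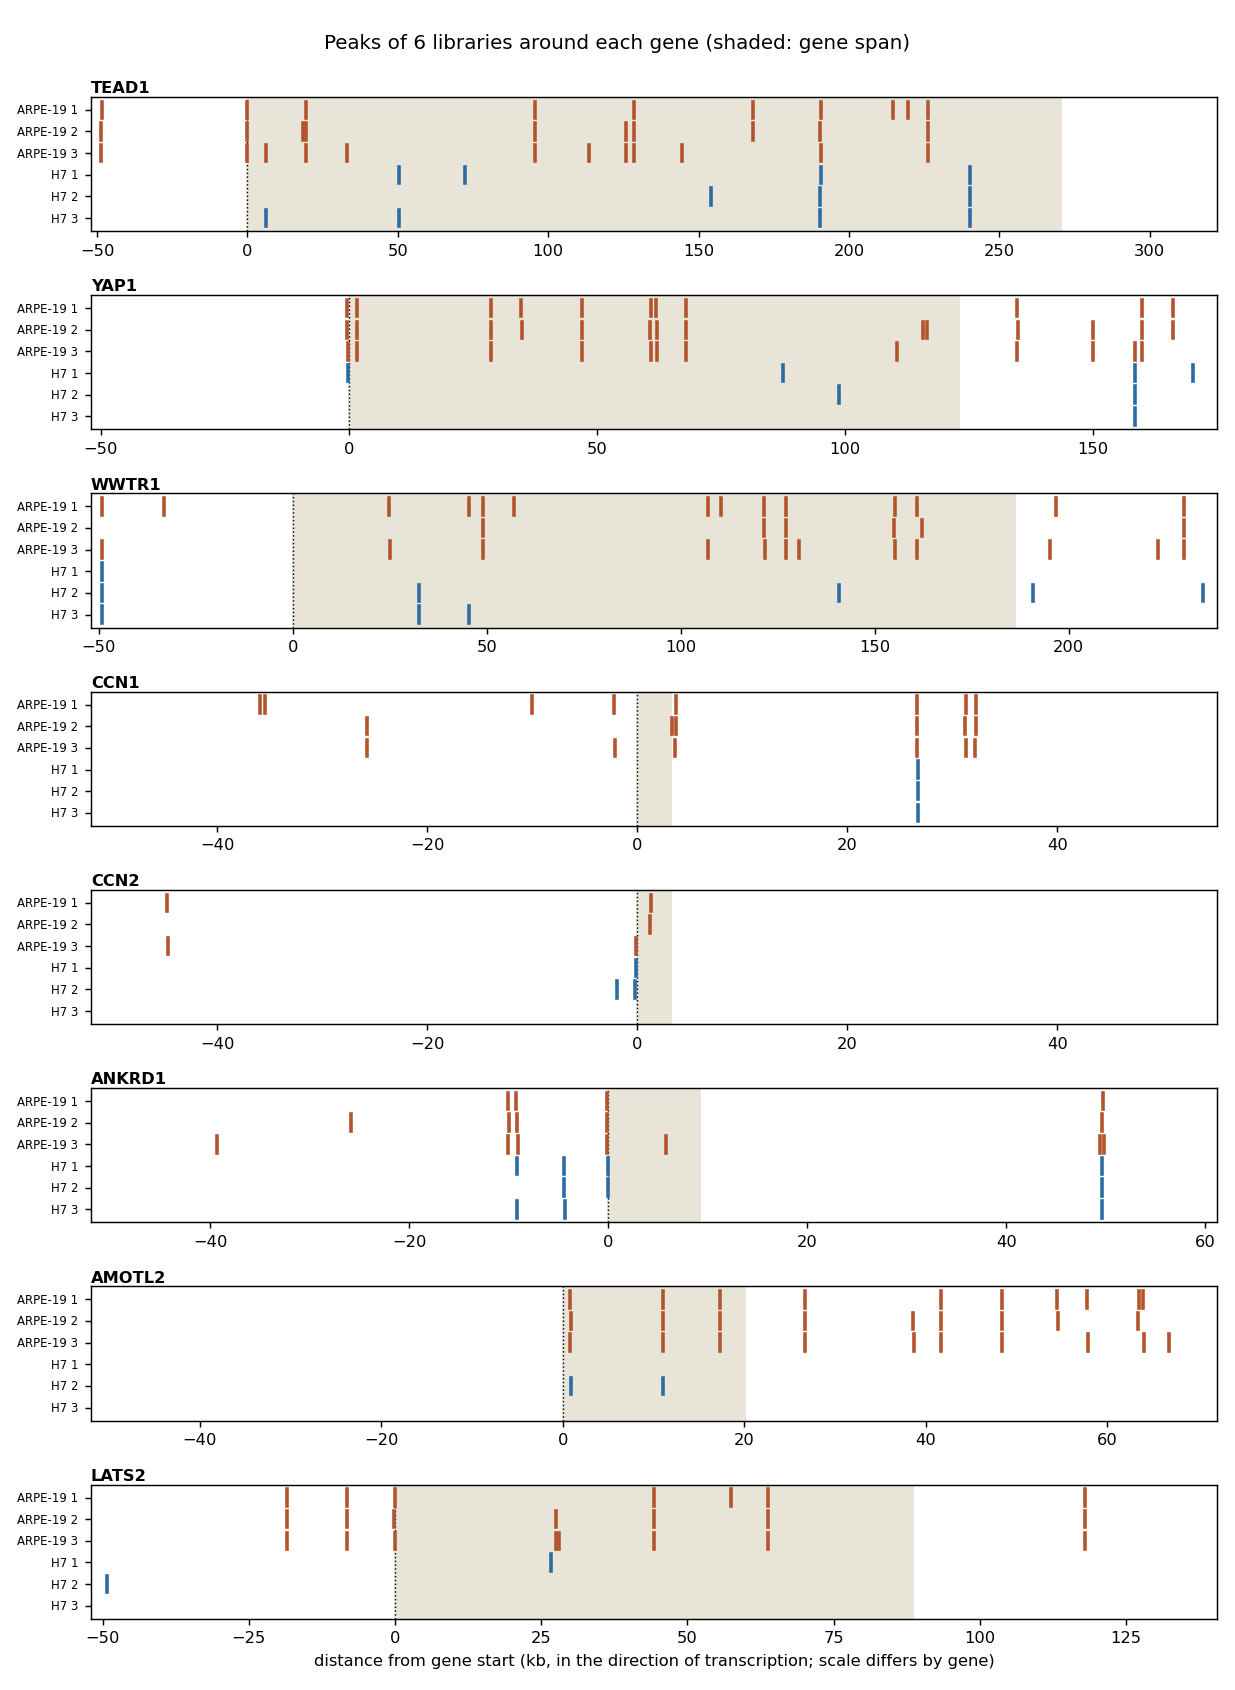
Position of each peak (vertical tick) by distance from the gene start in kb along the direction of transcription, with 1 row for each of the 6 libraries and a panel for each gene; the shaded band is the gene span and the scale differs by gene. ARPE-19 ticks line up over 3 libraries at many sites inside TEAD1, YAP1, WWTR1, AMOTL2 and LATS2, and H7 ticks line up over 3 libraries at 7 sites in all.

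TEAD1, the DNA-binding factor, lies on chromosome 11 from 12695969 to 12966298 and had 10, 10 and 12 peaks in the ARPE-19 libraries and 4, 3 and 4 in the H7 libraries. Of its 21 regions, 6 were called in ARPE-19 alone, 1 in H7 alone and 1 in all libraries. One of the 6 lay upstream, another at the gene start and the other 4 inside the long gene body. The strongest ARPE-19 region, from 12922122 to 12922429, lay 226 kb into the gene and had 25, 27 and 27 summit reads, and no H7 peak. Further on in the gene, the region from 12936052 to 12936312 had 10, 8 and 10 summit reads in the H7 libraries and no ARPE-19 peak. Nearer the start, 50.3 kb into the gene, the region from 12746271 to 12746438 had 12 and 11 reads in H7 replicates 1 and 3 and no ARPE-19 peak. The region from 12886240 to 12886791, 190 kb into the gene, had a peak in all 6 libraries. It had 10, 7 and 9 summit reads in ARPE-19 and 14, 14 and 14 in H7, so the reads of the lines did not overlap. The summits lay 190553, 190578 and 190554 bases from the start in ARPE-19 and 190442, 190425 and 190410 in H7. The values of the lines thus belong to different points of the region. Scaled by the library background, H7 lay 0.25 above ARPE-19 on the log2 scale (SE 0.16, exact permutation p = 0.1), and the scaled values of ARPE-19 replicate 3 (21.2) and H7 replicate 1 (21.4) were nearly equal. The median of this log2 difference (H7 minus ARPE-19) over all 1543 regions called in the 6 libraries was -0.88.

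YAP1, the coactivator itself, lies on chromosome 11 from 101981192 to 102104154 and had 11, 14 and 12 peaks in ARPE-19 and 4, 2 and 1 in H7. Of its 19 regions, 8 were called in ARPE-19 alone, and 6 of those lay in the gene body. These 6 body regions had 8 to 17 summit reads. The strongest region lay downstream, 160 kb from the start, from 102140751 to 102141297, with 19, 20 and 21 summit reads in ARPE-19 and no H7 peak. Its neighbour from 102139345 to 102139982 had the opposite pattern, with 15, 15 and 17 summit reads in H7 and 9 reads in ARPE-19 replicate 3 alone among the ARPE-19 libraries. The ends of this pair were under 1 kb apart.

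WWTR1, which encodes the YAP1 paralogue TAZ, lies on chromosome 3 from 149235022 to 149421250. It had 14, 6 and 12 peaks in ARPE-19 and 1, 5 and 3 in H7, the widest spread between libraries of a line among the 8 genes. Of its 22 regions, 5 were called in ARPE-19 alone, and 11 had a peak in 1 library. The strongest, from 149293841 to 149294285, lay 127 kb into the gene with 20, 12 and 23 summit reads. The region nearest to its upstream border, 49.0 kb before the start, from 149470231 to 149470546, had a peak in all 3 H7 libraries with 10, 8 and 9 summit reads. ARPE-19 replicates 1 and 3 also had a peak there, with 7 and 8 reads. COMMD2 and ANKUB1 are the neighbouring protein-coding genes on that side in RefSeq, and the gene to which this region belongs was not tested. Inside WWTR1, the region from 149388568 to 149388843 was called in H7 replicates 2 and 3, with 13 and 9 reads, and in no ARPE-19 library.

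CCN1, a secreted matricellular protein and a common readout of YAP, lies on chromosome 1 from 86046444 to 86049648. It had 8, 6 and 6 peaks in ARPE-19 and 1 in each H7 library. Downstream of the gene lay a group of strong ARPE-19 regions. The region from 86077359 to 86077874, 30.9 kb from the start, had 38, 30 and 45 summit reads in ARPE-19 and no H7 peak, and was the strongest of the 33 regions called in ARPE-19 alone. The region from 86078464 to 86079001 had 27, 16 and 25 reads and no H7 peak either.

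The only H7 peaks near CCN1 were in the region from 86072778 to 86073396, 26.3 kb from the start, which was called in all 6 libraries. It had 35, 41 and 39 summit reads in ARPE-19 and 25, 21 and 20 in H7, so every ARPE-19 library was above every H7 library although the H7 libraries had the higher genome-wide background. Scaled by that background, the log2 difference (H7 minus ARPE-19) was -1.26, with an SE of 0.13 and an exact permutation p = 0.1. Over all 1543 regions called in the 6 libraries the median of this difference was -0.88. The local background that the caller used was also higher in ARPE-19, at 7.05, 6.08 and 7.35 times the library background against 2.71, 2.86 and 2.60 times in H7. The authors' fold enrichment, which divides by that local background, was 8.17, 11.1 and 9.70 in ARPE-19 and 9.38, 8.17 and 7.94 in H7, and overlapped between the lines.

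CCN2, the closest relative of CCN1 among the members, lies on chromosome 6 from 132269316 to 132272513 and had far fewer peaks. The ARPE-19 libraries had 2, 1 and 2 peaks and the H7 libraries 1, 2 and 0, so the lines overlapped (exact permutation p = 0.7). None of its 4 regions had a peak in all 3 libraries of a line. The region at its start, from 132272486 to 132272875, had 13 summit reads in ARPE-19 replicate 3, 14 in H7 replicate 1 and 13 in H7 replicate 2. Its summits lay 78 bases before the start in ARPE-19 and 135 and 129 bases before it in the H7 libraries. In ARPE-19 replicates 1 and 2 a weaker region of 6 and 11 reads was called 1.16 kb after the start instead. The region 44.5 kb before the start had 10 and 7 reads in ARPE-19 replicates 1 and 3 and no H7 peak.

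ANKRD1, the nuclear ankyrin repeat protein, lies on chromosome 10 from 92671853 to 92681032 and was the locus with the most H7 peaks for its size. It had 4, 5 and 7 peaks in ARPE-19 and 4, 3 and 3 in H7, with 3.05 peaks per 100 kb in H7, where the other 7 genes had 0.354 to 1.05. The lines overlapped (exact permutation p = 0.2), and with every list limited to its 8622 strongest peaks it had 4, 2 and 3 in H7 and 0 in every ARPE-19 library. That limit fell at a -log10 p of 15.7 to 18.9 in ARPE-19 and of 4.31 to 6.81 in H7. It dropped the ARPE-19 peaks at the ANKRD1 start, which had 13, 14 and 15 summit reads. The H7 peaks at that start had 11 and 12 reads, in replicates 1 and 2. Upstream, the region from 92685140 to 92685697, 4.11 kb before the start, had 15, 13 and 13 summit reads in the H7 libraries and no ARPE-19 peak. The next region, from 92689956 to 92690442, had 8, 9 and 8 reads in ARPE-19 and 12 and 10 in H7 replicates 1 and 3. The third, from 92690895 to 92691319, had 8, 6 and 8 reads in ARPE-19 and no H7 peak. Regions of 3 different patterns thus followed each other between 4.11 and 10.3 kb before the start.

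At the downstream border of the ANKRD1 window, 49.3 kb from the start, the region from 92631122 to 92631759 was called in all 6 libraries. It had 5, 9 and 10 summit reads in ARPE-19 and 17, 9 and 12 in H7, with a scaled log2 difference of 0.22 (SE 0.42, exact permutation p = 0.7). The median over all 1543 regions called in the 6 libraries was -0.88. RPP30 is the neighbouring protein-coding gene on that side in RefSeq, and the gene to which this region belongs was not tested.

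AMOTL2, the angiomotin that binds YAP1, lies on chromosome 3 from 134074187 to 134094261 and had 10, 9 and 10 peaks in ARPE-19 and 0, 2 and 0 in H7. At 8.05 peaks per 100 kb it was the densest of the 8 windows in ARPE-19. All 12 regions lay from the gene start onward, 9 of them downstream of the gene, and each was called in some ARPE-19 library. The strongest, from 134082970 to 134083539, 10.7 kb into the gene, had 28, 29 and 41 summit reads in ARPE-19 and 9 in H7 replicate 2. The region from 134076726 to 134077158 had 27, 28 and 17 reads, and that from 134045634 to 134046116, 48.1 kb from the start, had 25, 24 and 34, both with no H7 peak. The local background of ARPE-19 peaks here had a median of 4.22 times the library background, close to the 4.45 times at CCN1, where the other 6 genes had 1.59 to 1.95 times. The part of the local background in the calls was not tested.

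LATS2, the inhibitory kinase, lies on chromosome 13 from 21547175 to 21635722 and had 7, 7 and 8 peaks in ARPE-19 and 1, 1 and 0 in H7. It had the highest share of regions called in ARPE-19 alone, 6 of 11. The strongest lay upstream, from 21653957 to 21654399, 18.2 kb before the start, with 21, 23 and 18 summit reads. A second, from 21643768 to 21644145, 8.05 kb before the start, had 17, 14 and 20. The 2 H7 peaks lay in regions with no ARPE-19 peak, each called in 1 library.

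At the gene starts, 6 of the 8 genes had a region within 1 kb, and 5 of these were called in 3 of 3 ARPE-19 libraries. The share over other gene starts was not analysed here, so these counts have no background to be read against. The H7 libraries had a peak at 4 starts, in 1 or 2 libraries each, and none of the 6 start regions was called in H7 replicate 3, the shortest list. TEAD1 had 7, 10 and 10 summit reads at its start in ARPE-19, LATS2 had 6, 13 and 10, and neither had an H7 peak. YAP1 had 12, 14 and 13 in ARPE-19 and 11 in H7 replicate 1. AMOTL2 had 15, 16 and 15 in ARPE-19 and 12 in H7 replicate 2, in a region 689 to 1025 bases into the gene. ANKRD1 had 13, 14 and 15 in ARPE-19 and 11 and 12 in H7 replicates 1 and 2. The ARPE-19 summits at ANKRD1 lay 222, 186 and 188 bases before the start and those of H7 lay 67 and 26 bases after it. All distances of peaks were counted from the hg19 gene spans, and the sequence matches from RefSeq starts on GRCh38. Since these starts were not matched, peak and match positions cannot be set side by side. CCN2 was the only gene whose start was called in more H7 than ARPE-19 libraries.

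**Figure D3:**
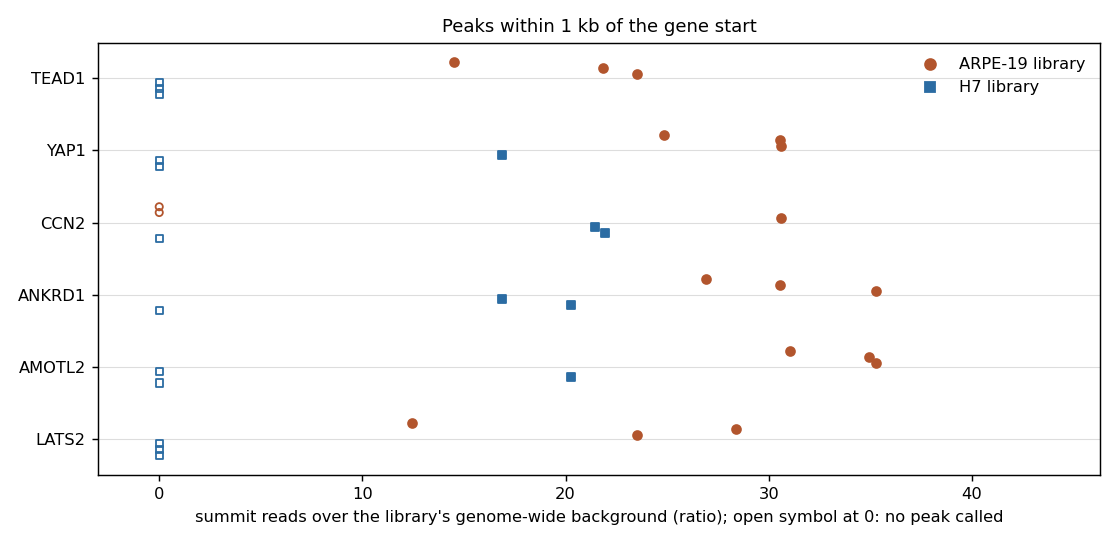
Summit reads over the library's genome-wide background (horizontal axis, ratio) in the region within 1 kb of the start of 6 genes, with circles for ARPE-19 and squares for H7 libraries; an open symbol at 0 marks a library with no peak. All 3 ARPE-19 libraries have a peak at each gene except CCN2, and the H7 signals that were called lie below the ARPE-19 signals of the same gene.

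CCN1 and WWTR1 had no region within 1 kb of the start in any library. At CCN1 the nearest region ended 1.98 kb before the start, with 13 and 12 summit reads in ARPE-19 replicates 1 and 3, on the side of the neighbouring gene DDAH1. At WWTR1 the nearest region was 24.9 kb into the gene. RefSeq holds a second, inner start of WWTR1, whose position on hg19 was not analysed here. A peak of 8 reads in ARPE-19 replicate 1 and of 11 in H7 replicate 3 was called 45.2 kb into the gene.

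In H7, 28 of the 106 regions had a peak, 12 of them in at least 2 libraries and 7 in all 3. Of these 7, 5 were also called in ARPE-19, in 1 to 3 libraries, and the other 2 were the H7-only regions at TEAD1 and ANKRD1. Over the genome, 3401 of 84664 regions were called in each H7 list, and 54.8% of these had an ARPE-19 peak. By contrast, 41 of the 106 regions were called in each ARPE-19 list, where 26664 of 84664 were over the genome. Of the 41, 8 had an H7 peak, which is 19.5% against 17.3% of such regions over the genome. The shares of all regions with a peak in at least 1, or at least 2, H7 libraries were not analysed here. In 11 of the 12 regions the H7 summits stayed between 8 and 17 reads, and the CCN1 region with 20 to 25 was the exception. LATS2 and AMOTL2 had none of the 12 regions.

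**Figure D4:**
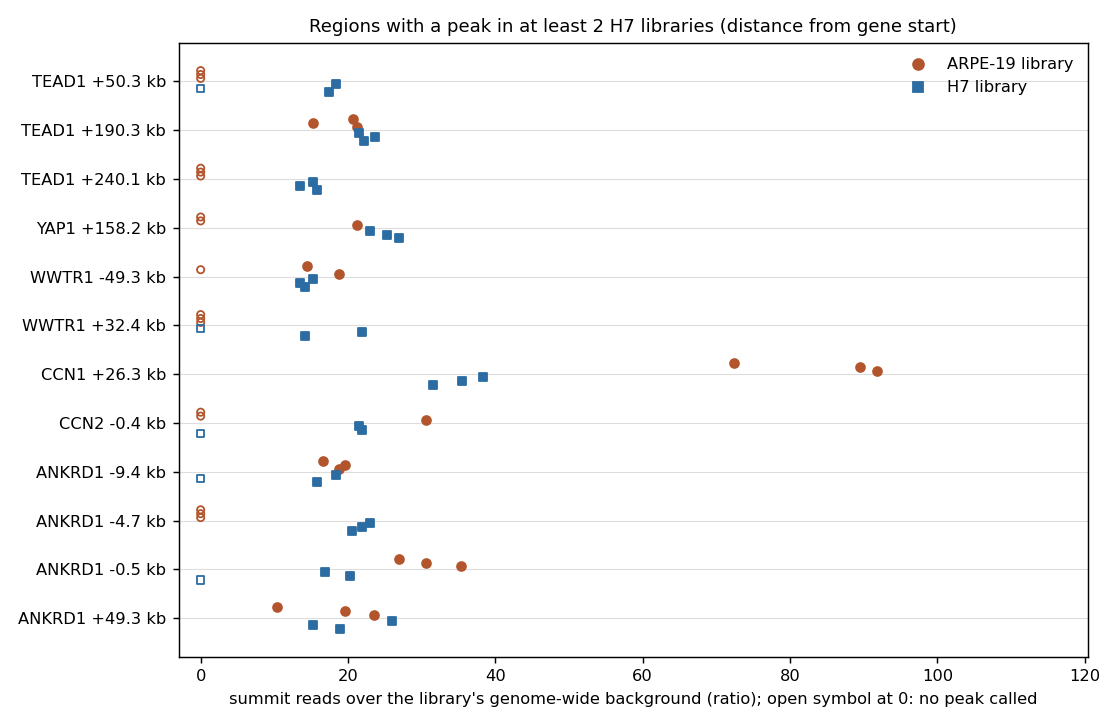
Summit reads over the library's genome-wide background (horizontal axis, ratio) in the 12 regions with a peak in at least 2 H7 libraries, named by gene and by the distance in kb of the region's upstream edge from the gene start. Circles are ARPE-19 and squares H7 libraries, open at 0 where no peak was called; the CCN1 region 26.3 kb from the start stands apart in ARPE-19.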

How the data were processed

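ATAC-seq peak lists of 6 libraries were used; 4C samples of the series were left out. The submitters' processing notes name hg19, MACS2 and bedtools, without versions. For the aligner and duplicate removal, nothing is given in the sources used here. Peaks were called per library, per the peak names in the deposited lists. The lists hold, as the authors' values, a score (10 times -log10 q), a fold enrichment ratio at the summit, and -log10 p and -log10 q.

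Summit reads and local background were solved from the deposited fold and -log10 p to within 0.001, for at least 99.988% of nuclear peaks per library. The commonest local background was taken as the library's genome-wide background. Intervals are not given, since PCR reads are not independent molecules and values cover counting error only. Peaks sharing at least 1 base were merged into regions. Gene spans were those of the rule, and strand came from RefSeq, or from general knowledge for TEAD1 and CCN1. Where 2 peaks of a library fell in a region, the stronger gave the reads. Counts per library were compared by exact two-sided permutation over 20 assignments, on log2(count + 0.5) for the 8 genes together. All 8 genes were named. Regions named were those at gene starts, the strongest called in all 3 ARPE-19 libraries, and those in at least 2 H7 libraries; the remaining named regions were chosen after their values were seen. The genes and lists were chosen with earlier results of these data known. The lines' identity was not checked against marker genes, whose hg19 positions were not used. Steps were tested on simulated data. Scripts ran in Python 3.11.15 with scipy 1.17.1, matplotlib 3.10.9, pandas 2.3.3 and numpy 2.4.6.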

Additional observations from a re-analysis of the deposited data

How the results depend on the processing

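With all lists limited to one length, the differences of H7 from ARPE-19 turned to 0.33 (log2 peaks near the 8 genes), 0.031 percentage points of the list, and 2.33 peaks at TEAD1, 1 at YAP1, 1 at WWTR1, 0.67 at CCN2 and 3 at ANKRD1. Regions called in ARPE-19 alone then numbered 4, in H7 alone 5 and in all libraries 1; that setting keeps fewer ARPE-19 peaks by construction. Within 10 kb the difference at CCN2 was 0. At a -log10 q minimum of 5, 1 region was called in H7 alone and 1 in all libraries. With peaks over 50% of the region, or within 10 kb, 1 region was called in all libraries. The summit signal of the regions called in all libraries, -0.27 (log2, H7 from ARPE-19), became 0.25 within 10 kb, where 1 region was left, 0.19 without scaling and 0.073 with the deposited fold. It became -1.26 at a -log10 q minimum of 5 and with all lists of one length, each with the CCN1 region alone, and -0.40 (without ARPE-19 replicate 1) to -0.14 (without ARPE-19 replicate 3) when each library was left out. The setting without scaling, the one with the deposited fold and the single p threshold were chosen after seeing the data. Leaving out each library gave -2.17 to -1.85 for log2 peaks, -0.024 to -0.0063 percentage points for the share of the list, 33 to 40 regions in ARPE-19 alone and 2 to 3 in H7 alone. Same-numbered libraries did not deviate together in peak counts (r = -0.015, -0.0068 and 0.035 over 13441 bins). Libraries with different numbers had r of -0.038 to 0.042. Whether same-numbered libraries were prepared together is not given by the labels, and these values cannot decide it. With the replicate block the log2 difference was -2.02 with an exact paired p of 0.25, the smallest possible. The weakest member peak of each library had 4 to 8 summit reads, and weaker sites were not called at this depth.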
